A study of Homo sapiens with 16 samples.

Results

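Tubulins are the building blocks of microtubules, the hollow filaments that carry cargo, shape the cell and form the mitotic spindle. An alpha-tubulin and a beta-tubulin pair into a dimer, dimers add end to end, and gamma-tubulin sits in the ring complex from which new filaments grow. Humans carry several alpha and beta genes, called isotypes, whose proteins are closely alike. TUBB and TUBA1B are broadly expressed and abundant in dividing cells, while TUBB3 and TUBB2B are known above all from neurons. The genes described here are TUBB2A, TUBB, TUBB3 and TUBB6 (beta), TUBA1A, TUBA1B and TUBA4A (alpha) and TUBG1 (gamma). They are 8 of the 11963 genes with a probe set of their own symbol, and they were selected on measured values, the large increase of TUBB2A after treatment in these same arrays. The 8 genes were read by 15 of the 22215 probe sets tested, 5 for TUBA1B, 3 for TUBB, 2 for TUBB3 and 1 for each of the others.

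Expression was measured in bulk cultures of 8 human cell lines on Affymetrix human genome arrays, with 1 array per line and condition, so the lines are the replicates. The T-cell lines Jurkat, CCRF-CEM, Molt-4 and Molt-3 are T-cell leukaemia lines, and both Molt lines came from the same patient. Each Molt line still counts as a replicate in the T-cell tests, so those replicates are not all independent. The ALCL lines Karpas 299, SU-DHL-1, JB6 and FE-PD are from anaplastic large cell lymphoma, a T-cell lymphoma, and FE-PD lacks the ALK fusion that the other ALCL lines carry. Treated cultures of every line received 1 µM 5-aza-2'-deoxycytidine (5-aza-dC), an inhibitor of DNA methyltransferases, for 6 days, and for the last 24 hours also 625 nM trichostatin A (TSA), an inhibitor of histone deacetylases. Untreated cultures of the same lines were the controls. The comparisons address what the treatment does to the expression pattern of each kind of line. The drugs were given together, so their effects cannot be told apart, nor can fewer expressing cells and less RNA per cell in a bulk culture.

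Values are on the log2 scale of RMA (robust multi-array average), on which 1 unit is a doubling, and ran from 3.36 to 14.42. Arrays have no read depth; their number limits the precision. A probe set is called, or said to rise or fall, at a limma Benjamini-Hochberg adjusted p under 0.05 over all 22215 probe sets, and the value after ± beside a tested difference is its standard error.

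Treated arrays stood apart from untreated ones in control probes. The probe set for 28S ribosomal RNA was higher by 5.46 to 7.40 in treated Molt-4, SU-DHL-1, Molt-3, JB6 and FE-PD, and changed by -0.81 in Karpas 299, 0.03 in CCRF-CEM and 0.64 in Jurkat. The hybridisation spikes were higher after treatment by 0.64 ± 0.68 and the gap between the 3′ and 5′ actin probe sets by 0.60 ± 0.39, and the SD over an array changed by -0.16 ± 0.09 (SD, n = 8 lines). When each array was centred on its spikes, the median change of all probe sets was -0.55 in T-cell lines and -0.53 in ALCL lines, against 0.13 and 0.08 as deposited. The share of calls that were higher was then 2.21% in T-cell lines and 3.82% in ALCL lines, against 52.62% and 36.52% as deposited. For untreated ALCL minus T-cell lines that share was 74.24% with the spikes and 36.00% as deposited (median of all probe sets 0.39 and 0.04). For the difference of the treatment effects it was 19.35% and 32.12%. The part of these controls in the tubulin results was not tested. TUBB2A and TUBB3 were higher, and TUBB and TUBA1B lower, after treatment in both kinds of line under each of these scalings. Centred on the spikes, however, neither TUBB3 probe set was called in T-cell or ALCL lines.

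Marker genes differed between the untreated lines in the direction of their labels. Of the ALCL markers 7 of 7 were higher in untreated ALCL than in untreated T-cell lines (median difference 5.29), beside 2.63% of all probe sets. Of the T-lineage genes 7 of 10 were lower (median difference -2.93), beside 4.68% of all. These lists were chosen with earlier results of these data known, so the counts are a description and no check of the labels. After treatment 8 of 10 T-lineage genes fell in T-cell lines, beside 18.4% of all probe sets. Their mean level in T-cell lines was 7.66 to 8.09 in treated and 9.40 to 10.21 in untreated arrays. In ALCL lines 0 of 10 were called, beside 18.3% of all probe sets. LCK, a kinase of T-cell receptor signalling, fell by 3.38 ± 0.22 in T-cell lines (adjusted p = 5.04e-05, limma). Of the 7 ALCL markers, CLU and PRF1 rose in T-cell lines, by 1.53 and 0.72, and in ALCL lines TIMP1 rose by 1.08 while TNFRSF8, the CD30 receptor that defines ALCL, fell by 3.25. Of all probe sets 20.4% rose in T-cell lines, and 6.69% rose and 11.6% fell in ALCL lines. With centring on the spikes CLU was at 0.85 (adjusted p = 0.144, limma) and PRF1 at 0.03 (0.953) in T-cell lines. TIMP1 was then at 0.48 (0.445) in ALCL lines.

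The upstream sequences of 5 tubulin genes are shown because both drugs act on chromatin and these genes differed in direction: TUBB2A and TUBB2B were higher after treatment, TUBA1B was lower, TUBA4A rose in T-cell and fell in ALCL lines, and TUBA1A rose in ALCL lines. Each is the 250 bases before the annotated gene start, 5′ to 3′ on the gene's own minus strand, from RefSeq (GRCh38.p14). Capitals mark matches, searched on either strand, to the letters TATAAA of a TATA box, the letters GGGCGG of a GC box, the letters CCAAT of the box named after them, and TGACGTCA, the cyclic AMP response element.
TUBB2A, chr6:3157545-3157794: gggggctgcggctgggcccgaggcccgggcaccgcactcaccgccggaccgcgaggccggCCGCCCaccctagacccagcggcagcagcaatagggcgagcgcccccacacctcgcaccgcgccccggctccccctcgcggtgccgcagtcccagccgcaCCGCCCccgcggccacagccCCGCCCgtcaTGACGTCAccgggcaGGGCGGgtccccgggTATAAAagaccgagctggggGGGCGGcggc
TUBB2B, chr6:3227654-3227903: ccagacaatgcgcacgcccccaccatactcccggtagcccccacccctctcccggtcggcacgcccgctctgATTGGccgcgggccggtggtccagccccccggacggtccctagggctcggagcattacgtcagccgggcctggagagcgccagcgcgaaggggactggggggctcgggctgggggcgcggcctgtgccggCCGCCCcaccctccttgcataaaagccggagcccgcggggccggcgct
TUBA1B, chr12:49131396-49131645: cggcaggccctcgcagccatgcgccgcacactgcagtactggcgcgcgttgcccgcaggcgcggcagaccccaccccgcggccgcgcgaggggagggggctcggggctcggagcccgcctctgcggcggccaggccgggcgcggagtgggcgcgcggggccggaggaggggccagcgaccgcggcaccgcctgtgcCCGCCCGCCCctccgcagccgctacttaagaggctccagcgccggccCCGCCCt
TUBA4A, chr2:219253919-219254168: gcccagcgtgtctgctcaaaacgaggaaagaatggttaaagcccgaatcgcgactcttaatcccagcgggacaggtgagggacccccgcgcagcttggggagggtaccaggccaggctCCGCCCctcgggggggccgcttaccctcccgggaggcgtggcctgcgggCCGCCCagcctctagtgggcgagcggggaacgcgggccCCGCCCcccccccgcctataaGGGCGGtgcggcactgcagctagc
TUBA1A, chr12:49189081-49189330: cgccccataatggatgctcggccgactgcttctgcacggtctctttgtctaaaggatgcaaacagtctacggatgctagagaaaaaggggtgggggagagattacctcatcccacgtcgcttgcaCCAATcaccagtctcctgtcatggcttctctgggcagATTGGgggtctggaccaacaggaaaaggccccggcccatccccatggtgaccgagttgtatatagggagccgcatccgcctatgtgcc
The TUBB2A window held 5 GC boxes, 1 cyclic AMP response element, and 1 TATA box that began 30 bases before the start. The TUBA4A window held 4 GC boxes and the TUBA1B window 3, of which a pair overlap. The TUBB2B window held 1 GC box and 1 CCAAT box, and the TUBA1A window 2 CCAAT boxes. Of 35116 windows of this length, 42.6% held a GC box, 32% a CCAAT box, 10.7% a TATA box and 1.65% a cyclic AMP response element. CpG pairs, the sites of DNA methylation, numbered 33 in the TUBB2A window, where 91.9% of windows had fewer. They numbered 38 for TUBA1B, 28 for TUBB2B, 23 for TUBA4A and 11 for TUBA1A, and the median over all windows was 11. Methylation and histone acetylation were not measured on these arrays, so the matches are a description.

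TUBB2A, a beta-tubulin known for high expression in brain, was higher after treatment in each of the 8 lines. It read 12.01 in treated CCRF-CEM, 11.71 in treated Jurkat, 10.99 in treated Molt-3 and 10.44 in treated Molt-4, against 8.65, 9.36, 7.19 and 6.96 in untreated cultures of those lines in the same order. In ALCL lines it read 10.99 in treated FE-PD, 10.71 in treated JB6, 11.12 in treated SU-DHL-1 and 10.17 in treated Karpas 299, against 8.26, 7.28, 8.36 and 8.48 untreated. The lowest treated value, in Karpas 299, lay above the highest untreated one, in Jurkat.

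The change of TUBB2A was 3.36 in CCRF-CEM, 2.35 in Jurkat, 3.79 in Molt-3 and 3.48 in Molt-4, a mean of 3.24 ± 0.63 (SD, n = 4) or 9.47-fold. It was 2.74 in FE-PD, 3.44 in JB6, 2.76 in SU-DHL-1 and 1.69 in Karpas 299, a mean of 2.65 ± 0.72 (SD, n = 4) or 6.29-fold. The family was chosen for these values, so they carry no test. By mean change the probe set was number 19 from the top of 22215 in T-cell lines, 35 in ALCL lines and 20 over all 8 lines, and by the smallest change of any line it was number 16. Probe sets that began at a like level (within 0.5 units) had a median change of -0.16 in T-cell lines and -0.10 in ALCL lines.

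The lines were not alike in TUBB2A before treatment. Untreated levels averaged 8.10 ± 0.55 in ALCL lines and 8.04 ± 1.15 in T-cell lines (SD, n = 4 each), with Jurkat highest and Molt-4 lowest. The difference of 0.05 ± 0.56 had an adjusted p of 0.965 (limma), from arrays that also enter the treatment change. Treated levels averaged 11.29 ± 0.71 in T-cell lines and 10.75 ± 0.42 in ALCL lines (SD, n = 4 each).

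**Figure D1:**
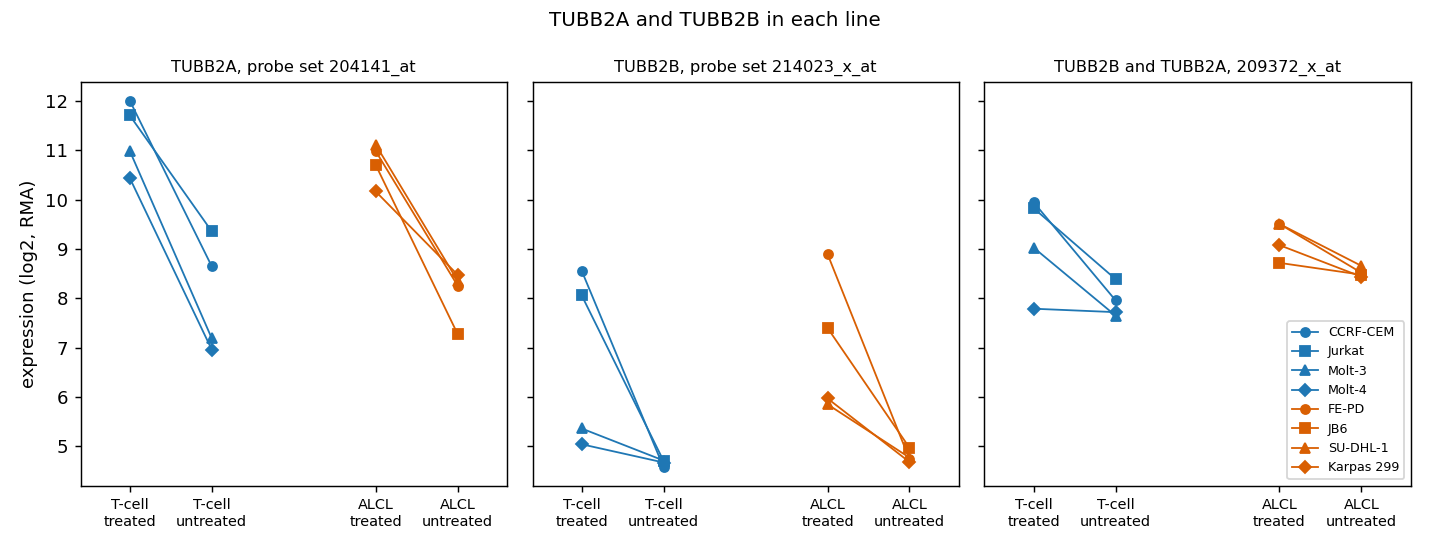
Expression (log2, RMA) of TUBB2A, of TUBB2B and of the probe set assigned to both genes, in each treated and untreated T-cell line (blue) and ALCL line (orange); a line joins the cultures of 1 cell line. TUBB2A lay between 10.17 and 12.01 in treated and between 6.96 and 9.36 in untreated cultures, while TUBB2B was above 7 in treated CCRF-CEM, Jurkat, FE-PD and JB6 alone.

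TUBB2B lies near TUBB2A on chromosome 6 and encodes a very similar protein, which neurons need to migrate. It read 8.56 in treated CCRF-CEM, 8.06 in treated Jurkat, 5.36 in treated Molt-3 and 5.04 in treated Molt-4, against 4.57, 4.70, 4.71 and 4.67 untreated. It read 8.90 in treated FE-PD, 7.40 in treated JB6, 5.85 in treated SU-DHL-1 and 5.97 in treated Karpas 299, against 4.74, 4.97, 4.77 and 4.68 untreated. Every treated value lay above every untreated one, but CCRF-CEM, Jurkat, FE-PD and JB6 stood far above the other treated lines. The change was 2.09 ± 0.66 in T-cell lines (adjusted p = 0.0328, limma) and 2.24 ± 0.66 in ALCL lines (adjusted p = 0.0431). The T-cell call was lost without CCRF-CEM (adjusted p = 0.12) or Jurkat (0.116), and the ALCL call without FE-PD (0.12), JB6 (0.144), SU-DHL-1 (0.0637) or Karpas 299 (0.0525). Quantile normalization lost both (0.0654 and 0.0644), and no replicate block (0.0711) and the 28S term (0.0778) lost the ALCL call. In T-cell lines the mean change was 0.51 in the lines with the 28S rise and 3.68 in those without it.

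The lines with the largest TUBB2A changes were not those with the largest TUBB2B changes: Molt-3 and Molt-4 had the 2 highest changes of TUBB2A, 3.79 and 3.48, and the 2 lowest of TUBB2B, 0.65 and 0.37. The probe set assigned to both genes changed by 2.00 in CCRF-CEM, 1.43 in Jurkat, 1.38 in Molt-3 and 0.08 in Molt-4, and by 1.00 in FE-PD, 0.24 in JB6, 0.85 in SU-DHL-1 and 0.63 in Karpas 299. Its mean changes of 1.22 in T-cell and 0.68 in ALCL lines carry no test, since it shares TUBB2A. The x in a probe set name marks probes that can bind related sequences, as do 9 of the 15 probe sets of the family, so the reading of each such probe set may include other isotypes.

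TUBB3, the class III beta-tubulin used as a marker of young neurons, rose in both kinds of line. On 213476_x_at, treated CCRF-CEM read 12.48, Jurkat 11.89, Molt-3 11.11 and Molt-4 10.58, against 10.43, 11.10, 9.89 and 10.00 untreated. Treated FE-PD read 12.07, JB6 12.34, SU-DHL-1 12.07 and Karpas 299 12.11, against 11.59, 11.39, 11.57 and 11.11 untreated. Each line was higher after treatment, although treated and untreated T-cell lines overlapped and ALCL lines did not. The change was 1.16 ± 0.22 in T-cell lines (adjusted p = 0.00425, limma) and 0.73 ± 0.22 in ALCL lines (adjusted p = 0.0458). The other probe set, 202154_x_at, changed by 0.90 ± 0.18 in T-cell lines (adjusted p = 0.00518) and 0.83 ± 0.18 in ALCL lines (0.0123).

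The direction of TUBB3 was the same in all 16 values, 2 probe sets in 8 lines. The ALCL call of 213476_x_at was lost without FE-PD (adjusted p = 0.0602), JB6 (0.165), SU-DHL-1 (0.0922), Karpas 299 (0.128), Jurkat (0.0532) or Molt-3 (0.0708), and that of 202154_x_at without JB6 (0.0564) or SU-DHL-1 (0.0508). With no replicate block the ALCL calls of both (0.188 and 0.123) and the T-cell call of 202154_x_at (0.0513) were lost, and that of 213476_x_at in ALCL lines also with a random block (0.0673) or the 28S term (0.0782). Probe sets at a like untreated level had a median change of -0.73 in T-cell lines and -0.50 in ALCL lines for 213476_x_at. Between untreated ALCL and T-cell lines TUBB3 differed by 1.06 ± 0.27 (adjusted p = 0.0517) and 0.81 ± 0.24 (adjusted p = 0.0906), and without Jurkat both passed (0.00962 and 0.0175).

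TUBB, the main beta-tubulin of dividing cells, moved the other way, and all 24 values of its 3 probe sets in 8 lines were lower after treatment. For 209026_x_at, treated CCRF-CEM read 12.19, Jurkat 12.24, Molt-3 12.31 and Molt-4 11.57, against 13.27, 13.36, 13.51 and 13.49 untreated. Treated FE-PD read 10.75, JB6 11.48, SU-DHL-1 11.56 and Karpas 299 12.00, against 12.75, 12.51, 12.93 and 12.64 untreated. Treated and untreated values did not overlap in either kind of line, and FE-PD and Molt-4 moved furthest.

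The change of 209026_x_at was -1.33 ± 0.22 in T-cell lines, 2.51-fold lower (adjusted p = 0.00206, limma), and -1.26 ± 0.22 in ALCL lines, 2.4-fold lower (adjusted p = 0.00438). The probe set 211714_x_at changed by -1.20 in T-cell and -1.36 in ALCL lines, and 212320_at by -0.73 and -1.66, and all were called. The T-cell call of 212320_at (adjusted p = 0.035) was lost without CCRF-CEM (0.121), Molt-3 (0.0872) or Molt-4 (0.14), with quantile normalization (0.141) and with the 28S change as a term (-0.52, 0.265). With that term the ALCL calls of 209026_x_at (-0.89, 0.0983) and 211714_x_at (-1.02, 0.0769) were lost too. Untreated ALCL lines were below untreated T-cell lines, with differences of -0.70 ± 0.11 (209026_x_at, adjusted p = 0.0112) and -0.59 ± 0.09 (211714_x_at, adjusted p = 0.0092). With centring on the spikes these differences were -0.36 (adjusted p = 0.655) and -0.25 (0.73). The third probe set differed by -0.46 ± 0.15 (adjusted p = 0.112, and 0.0258 without Jurkat).

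TUBB6, a beta-tubulin known from non-neuronal cells, split the ALCL lines. It read 7.86 in treated CCRF-CEM, 6.38 in treated Jurkat, 6.46 in treated Molt-3 and 6.92 in treated Molt-4, against 5.99, 5.70, 5.68 and 6.03 untreated. It read 7.08 in treated FE-PD, 9.55 in treated JB6, 9.58 in treated SU-DHL-1 and 9.50 in treated Karpas 299, against 6.41, 9.80, 10.80 and 10.08 untreated. FE-PD lay nearer to the T-cell lines than to the other ALCL lines, and it was the one ALCL line that was higher after treatment.

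The T-cell change of TUBB6 was 1.05 ± 0.28, higher in 4 of 4 lines (adjusted p = 0.0187, limma). The call was lost in 9 of 19 alternatives, among them no replicate block (0.308), the line as a random block (0.146), the 28S term (0.0659), and leaving out CCRF-CEM (0.0669), Molt-3 (0.0508) or Molt-4 (0.0567). The ALCL change was -0.34 ± 0.28 (adjusted p = 0.404), and the difference of the effects, 1.40 ± 0.40, was not called (adjusted p = 0.17). Untreated ALCL lines all lay above untreated T-cell lines, by 3.42 ± 0.85 or 10.7-fold on average, with an adjusted p of 0.0511, and without FE-PD the difference was 4.38 (adjusted p = 0.000277).

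TUBA1B, the broadly expressed alpha-tubulin, fell together with TUBB, and all 40 values of its 5 probe sets were lower after treatment. For 201090_x_at, treated CCRF-CEM read 13.28, Jurkat 13.90, Molt-3 13.45 and Molt-4 12.92, against 14.28, 14.13, 14.31 and 14.27 untreated. Treated FE-PD read 12.14, JB6 12.61, SU-DHL-1 12.52 and Karpas 299 12.92, against 13.82, 14.16, 14.04 and 13.80 untreated. Jurkat moved least, and the untreated values lay near the top of the deposited range, 14.42.

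The change of 201090_x_at was -0.86 ± 0.19 in T-cell lines (adjusted p = 0.00799, limma) and -1.41 ± 0.19 in ALCL lines (adjusted p = 0.00149). All 5 probe sets were called in both, with changes of -0.86 to -0.75 in T-cell lines and -1.41 to -1.16 in ALCL lines. In T-cell lines 211058_x_at was not called without Molt-3 (adjusted p = 0.0531) or Molt-4 (0.0698), 213646_x_at without Molt-3 (0.0561) or Molt-4 (0.0688), and 211072_x_at and 212639_x_at without Molt-4 (0.0565 and 0.0585). With the 28S change as a term, 0 of 5 were called in T-cell lines (-0.57 to -0.49, adjusted p = 0.0855 to 0.142), and in ALCL lines 211058_x_at (0.067), 212639_x_at (0.0631) and 213646_x_at (0.0738) were not called. All 5 names carry the x mark, so they are not independent readings of 1 gene.

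The falls of TUBB and TUBA1B were larger than the median of probe sets at a like untreated level. That median was -0.08 for 209026_x_at and -0.24 for 201090_x_at in T-cell lines, and -0.26 and -0.18 in ALCL lines. For TUBB 212320_at it was -0.45 in T-cell lines, beside a change of -0.73, and 33.3% of those probe sets had a lower change. In ALCL lines it was -0.48 beside -1.66, and 5.05% had a lower change. The plot of change against untreated level places TUBB 209026_x_at and 212320_at among all probe sets. Its band is drawn to the middle of the last step, 13 to 14. It ends below the untreated levels of the TUBA1B probe sets, and in T-cell lines below that of TUBB 211714_x_at.

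**Figure D2:**
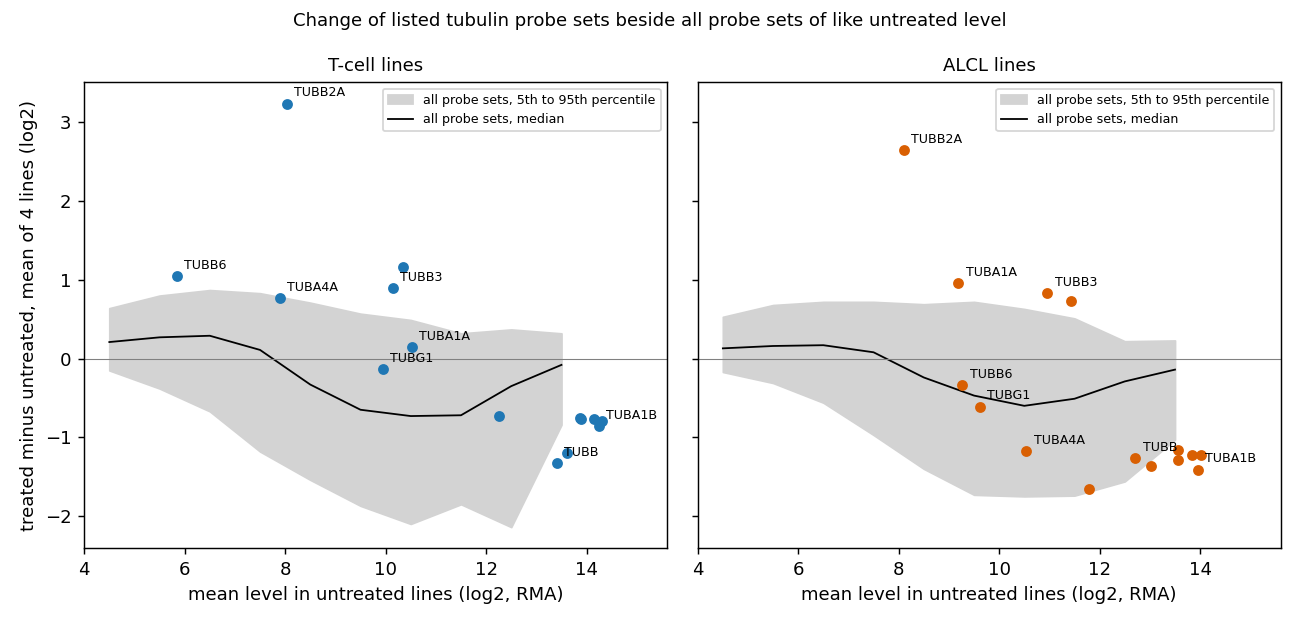
Mean change (treated minus untreated, log2, n = 4 lines) of the 15 probe sets against their mean level (log2, RMA) in untreated T-cell lines (left) and ALCL lines (right); the grey band spans the percentiles given in the legend over all probe sets, in steps of 1 unit. TUBB2A, at 3.24 and 2.65, and both TUBB3 probe sets lie above the band in both panels. The band ends below the untreated levels of the TUBA1B probe sets.

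TUBA4A, an alpha-tubulin known from platelets and skeletal muscle, moved in opposite directions in the different kinds of line. Treated CCRF-CEM read 9.15, Jurkat 9.74, Molt-3 8.18 and Molt-4 7.59, against 8.08, 8.26, 7.63 and 7.59 untreated. Treated FE-PD read 9.45, JB6 9.30, SU-DHL-1 9.39 and Karpas 299 9.29, against 11.45, 10.31, 10.53 and 9.87 untreated. The treated ALCL lines lay close together and below every untreated ALCL line, and Molt-4 alone among the T-cell lines was not higher after treatment.

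The TUBA4A change was 0.77 ± 0.26 in T-cell lines (adjusted p = 0.0429, limma) and -1.18 ± 0.26 in ALCL lines (adjusted p = 0.0144). Probe sets at a like untreated level had a median change of -0.09 in T-cell lines and -0.58 in ALCL lines. Of these, 94.6% in T-cell lines and 18.1% in ALCL lines had a lower change than TUBA4A. The difference of the effects, 1.95 ± 0.37, was called (adjusted p = 0.041), and stayed between 1.65 and 2.21 in 18 alternatives, of which 6 kept the call. The call was lost with no replicate block (0.269), with the line as a random block (0.052), with quantile normalization (0.103) and with the spikes (0.223). It was also lost without FE-PD (0.0723), JB6 (0.0895), SU-DHL-1 (0.0809), CCRF-CEM (0.0879), Jurkat (0.0822) or Molt-3 (0.123). The T-cell call was lost without JB6 (0.0522), SU-DHL-1 (0.057), CCRF-CEM (0.121), Jurkat (0.161) or Molt-3 (0.093), and with no replicate block (0.148) or with the line as a random block (0.06). The ALCL call was lost without SU-DHL-1 (0.051), with no replicate block (0.0748), with quantile normalization (-0.84, 0.0819) and with the 28S change as a term (-0.63, 0.285). In T-cell lines the mean change was 0.27 with the 28S rise and 1.28 without it. Untreated ALCL lines all lay above untreated T-cell lines, by 2.65 ± 0.33 or 6.27-fold (adjusted p = 0.00365), and this call held in all 13 alternatives.

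TUBA1A, the alpha-tubulin of developing neurons, rose in ALCL lines. Treated FE-PD read 9.95, JB6 10.74, SU-DHL-1 10.20 and Karpas 299 9.72, against 9.10, 9.36, 9.57 and 8.73 untreated. Treated CCRF-CEM read 10.69, Jurkat 11.44, Molt-3 10.61 and Molt-4 9.97, against 10.61, 10.20, 10.79 and 10.52 untreated. Every ALCL line was higher after treatment, while CCRF-CEM and Jurkat were higher and Molt-3 and Molt-4 lower. The ALCL change was 0.96 ± 0.25 (adjusted p = 0.0269, limma), and the call was lost without FE-PD (0.0525), JB6 (0.123), SU-DHL-1 (0.0545) or Karpas 299 (0.0644), and with the 28S term (0.0566). The T-cell change was 0.15 ± 0.25 (adjusted p = 0.649), and the difference of the effects -0.82 ± 0.35 (adjusted p = 0.402). Untreated ALCL lines all lay below untreated T-cell lines, with a difference of -1.34 ± 0.20 or 2.53-fold (adjusted p = 0.00797, and 0.247 with centring on the spikes).

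**Figure D3:**
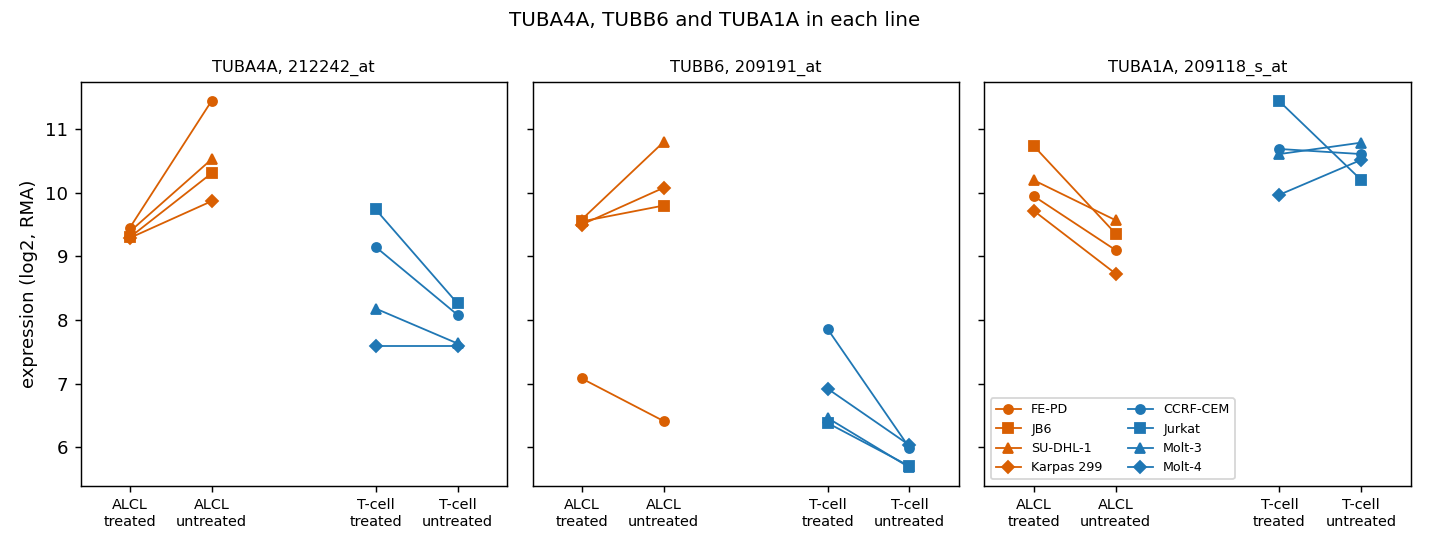
Expression (log2, RMA) of TUBA4A, TUBB6 and TUBA1A in each treated and untreated ALCL line (orange) and T-cell line (blue); a line joins the cultures of 1 cell line. Treated ALCL lines lie between 9.29 and 9.45 for TUBA4A, and FE-PD lies apart from the other ALCL lines for TUBB6.

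The scaling and the 28S rise touched these calls unequally. With centring on the spikes, TUBB and TUBA1B kept their calls in both kinds of line, with changes of -2.01 and -1.87 for TUBB 209026_x_at and -1.54 and -2.02 for TUBA1B 201090_x_at. TUBB3 213476_x_at was then at 0.48 (adjusted p = 0.439) in T-cell and 0.13 (0.808) in ALCL lines, TUBB6 at 0.37 (0.54) in T-cell lines, TUBA4A at 0.09 (0.877) in T-cell lines and TUBA1A at 0.36 (0.53) in ALCL lines. TUBB2A was at 2.56 and 2.05. In the T-cell lines without the 28S rise, CCRF-CEM and Jurkat, TUBB2A had changed by 2.85, TUBB 209026_x_at by -1.10 and TUBA1B 201090_x_at by -0.62 (adjusted p = 0.168), against 3.64, -1.56 and -1.10 in Molt-3 and Molt-4, which had it. In ALCL lines these changes were 1.69, -0.64 and -0.89 in Karpas 299, the line without the rise, and 2.98, -1.47 and -1.58 in the others. Karpas 299 is a single pair of cultures, so its values come without a spread among ALCL lines. The sets of lines with and without the rise were formed after the data were seen.

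TUBG1, the gamma-tubulin that starts new microtubules, was not called in any of the 4 comparisons on the deposited scale. It changed by 0.18 in CCRF-CEM, 0.35 in Jurkat, -0.31 in Molt-3 and -0.72 in Molt-4, with a mean of -0.13 ± 0.26 (adjusted p = 0.705, limma). In the ALCL lines it changed by -0.95 in FE-PD, -1.45 in JB6, -0.11 in SU-DHL-1 and 0.06 in Karpas 299, with a mean of -0.61 ± 0.26 (adjusted p = 0.13). With centring on the spikes the ALCL change was -1.22 and was called (adjusted p = 0.0312). The lines differed in direction within both groups. Untreated ALCL and T-cell lines differed by -0.34 ± 0.25 (adjusted p = 0.454), and the effects by 0.48 ± 0.37 (adjusted p = 0.667).

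**Figure D4:**
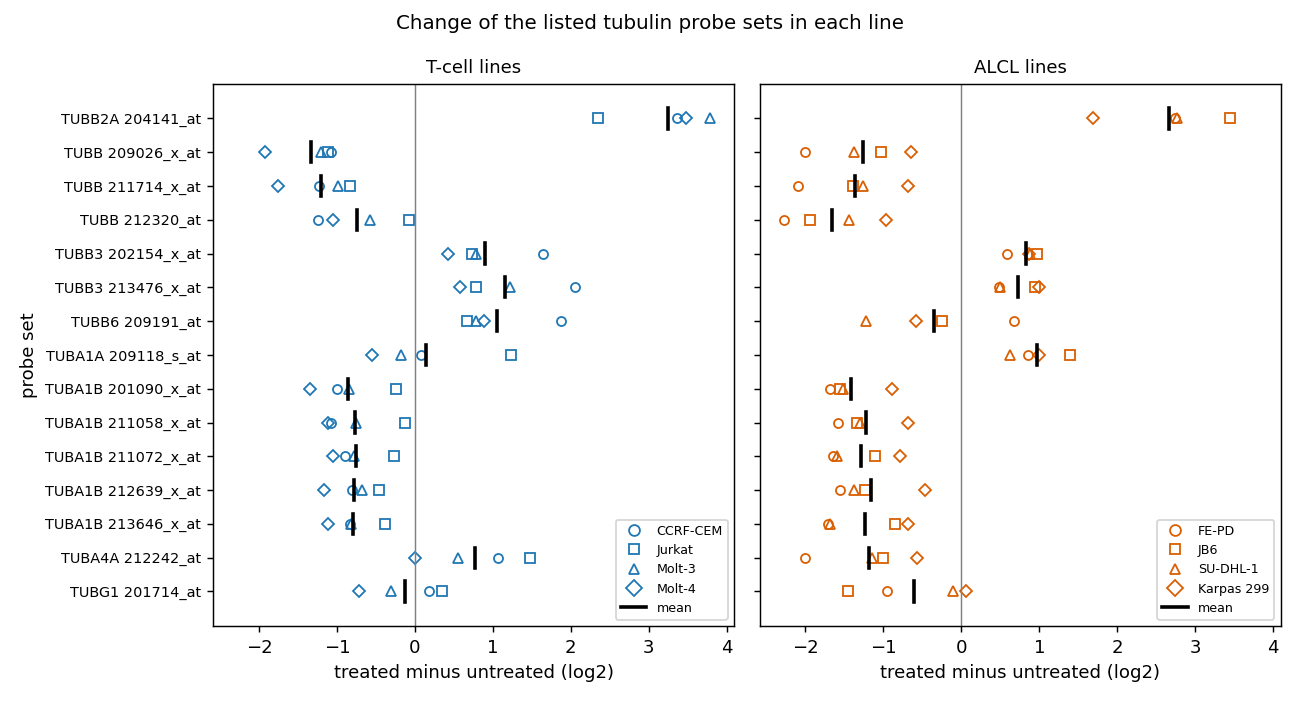
Change (treated minus untreated, log2) of each of the 15 probe sets in each T-cell line (left) and ALCL line (right), with the mean of 4 lines as a black bar. Each TUBB and TUBA1B point lies below 0 and each TUBB2A and TUBB3 point above it, and the TUBA4A means lie on opposite sides, at 0.77 and -1.18.

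Over the family without TUBB2A, 12 of 14 probe sets were called in T-cell lines, 4 higher and 8 lower, where 38.7% of all probe sets were called (20.4% higher, 18.4% lower). In ALCL lines 12 of 14 were called, 3 higher and 9 lower, where 18.3% of all were called (6.69% higher, 11.6% lower). These probe sets belong to 5 of 7 genes in each kind of line, and the 8 lower ones in T-cell lines to TUBB and TUBA1B. The median change of the 14 was -0.74 in T-cell and -1.21 in ALCL lines, beside 0.13 and 0.08 over all probe sets. The several probe sets of TUBB and TUBA1B weigh on it. By gene, 3 rose and 2 fell in T-cell lines, and 2 rose and 3 fell in ALCL lines. With 1 probe set for each of the 8 genes, TUBB2A included, the median was 0.46 in T-cell and -0.48 in ALCL lines. The difference of the effects was called for 1 of 14, TUBA4A, and for 1.23% of all. Between untreated ALCL and T-cell lines 4 of 15 were called, TUBA4A higher and TUBA1A and 2 of TUBB lower, where 7.31% of all were called (2.63% higher, 4.68% lower). In 9 of the 15 the untreated lines of the kinds did not overlap, beside 17% of all probe sets. The 9 include more than 1 probe set of TUBB and of TUBA1B.

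Of 10 other tubulin genes with a probe set of their own symbol, 6 were called in T-cell lines and 4 in ALCL lines, among them TUBB2B. The share called over all probe sets was 38.7% in T-cell and 18.3% in ALCL lines, a share of probe sets and not of genes. By the probe set of highest mean of each gene, 4 rose and 2 fell in T-cell lines, and 3 rose and 1 fell in ALCL lines. TUBB4A, a beta-tubulin of brain, rose by 1.61 ± 0.27 in T-cell lines (adjusted p = 0.00238, limma) and 1.38 ± 0.27 in ALCL lines (adjusted p = 0.00803), and was higher in 8 of 8 lines. Treated T-cell lines lay between 8.31 and 8.97 and untreated ones between 6.74 and 7.39, with no overlap. Treated ALCL lines reached up to 9.14 and untreated ones up to 7.78, and the groups overlapped because treated SU-DHL-1 was low. With centring on the spikes the changes were 0.93 (adjusted p = 0.1) and 0.78 (adjusted p = 0.23). TUBA1C, another alpha-tubulin of dividing cells, fell on both probe sets, with changes of -0.63 and -0.67 in T-cell lines and -0.94 and -0.84 in ALCL lines. Its T-cell calls were lost without Molt-3 (adjusted p = 0.122 and 0.083) or Molt-4 (0.173 and 0.0966), and for 209251_x_at also without CCRF-CEM (0.107) or SU-DHL-1 (0.0538). Its ALCL calls were lost without SU-DHL-1 (0.0535 and 0.0646), and for 209251_x_at without JB6 (0.065). With the 28S term all 4 calls were lost (adjusted p = 0.206 to 0.364).

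TUBG2, the other gamma-tubulin gene, changed by 0.68 ± 0.13 in T-cell lines (adjusted p = 0.00497, limma) and 0.45 ± 0.13 in ALCL lines (adjusted p = 0.0442), and by -0.00 and -0.16 with centring on the spikes. In ALCL lines it was not called in 14 of 18 alternatives. TUBB4B, a beta-tubulin abundant in cilia, changed by 0.67 ± 0.18 on 213726_x_at in T-cell lines (adjusted p = 0.0198, and -0.02 with the spikes), and this call was lost without CCRF-CEM (0.0653) or Molt-3 (0.078) and with no replicate block (0.132). Its other probe set had 0.61 (adjusted p = 0.0509), and both had 0.27 in ALCL lines. TUBD1, the delta-tubulin of centrioles, fell by 0.56 on 210389_x_at in T-cell lines (adjusted p = 0.038), and the call was lost without Karpas 299 (0.0509), Jurkat (0.106), Molt-3 (0.152) or Molt-4 (0.143), with no replicate block (0.204), with a random block (0.0855) and with the 28S term (-0.36, 0.298). Its other probe set, 221326_s_at, had 0.03 there (adjusted p = 0.812).

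TUBA4B, TUBA8, TUBAL3 and TUBB1 were not called in either kind of line. A probe set assigned to TUBA3D and TUBA3C, 216323_x_at, rose by 1.13 ± 0.22 in T-cell lines (adjusted p = 0.00514, limma) and had -0.01 in ALCL lines (adjusted p = 0.976). With centring on the spikes its T-cell change was 0.45 (adjusted p = 0.464). The other probe set of these genes, 210527_x_at, had 0.19 in T-cell lines (adjusted p = 0.365) and -0.21 in ALCL lines (0.382). Of the 13 probe sets of the other tubulin genes, limma called 7 in T-cell lines and 5 in ALCL lines. Over all probe sets these shares were 38.7% and 18.3%. For the difference of the effects and between untreated lines, limma called 0 of the 13, beside 1.23% and 7.31% of all. In each of these comparisons 1 of the 13 had an unadjusted p under 0.05.

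Tubulin chains are folded by prefoldin, the CCT chaperonin and the tubulin cofactors before they pair. Of 19 such genes, 12 fell and 0 rose in T-cell lines (median -0.67), where 18.4% of all probe sets fell, and 6 fell and 0 rose in ALCL lines (median -0.45), where 11.6% of all fell. The prefoldin subunits PFDN4, VBP1 and PFDN1 fell in T-cell lines, with changes of -2.18 ± 0.37 (adjusted p = 0.00253, limma), -1.66 ± 0.30 (0.00354) and -1.08 ± 0.13 (0.000585). In ALCL lines VBP1 fell by 1.76 ± 0.30 (0.00438) and the chaperonin subunit CCT5 fell by 1.26 ± 0.26 (0.00944). The median of the list was -1.03 in T-cell lines with the 28S rise and -0.23 in those without it. Its mean level in untreated arrays was 10.00 to 10.17 in T-cell and 9.56 to 10.12 in ALCL lines. All probe sets with untreated levels of 10 to 11 had a median change of -0.73 in T-cell and -0.60 in ALCL lines. At levels of 9 to 10 it was -0.47 in ALCL lines, so the list medians were close to those of like-level probe sets.

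Of 8 genes of the gamma-tubulin ring complex and its anchors, 4 fell and 1 rose in T-cell lines (median -0.63), and 3 fell and 0 rose in ALCL lines (median -0.18), beside 18.4% and 11.6% of all probe sets that fell and 20.4% and 6.69% that rose. TUBGCP3, a core subunit of the ring, fell by 2.34 ± 0.21 in T-cell lines (adjusted p = 0.000171, limma) and fell by 1.93 ± 0.21 in ALCL lines (0.000705). TUBGCP5, another subunit, fell by 0.79 ± 0.14 (0.00306) in T-cell lines and fell by 0.59 ± 0.14 in ALCL lines (0.0185, and 0.089 without SU-DHL-1). AKAP9, a scaffold of the centrosome and Golgi, fell by 0.91 in T-cell lines (0.0134) and had 0.19 in ALCL lines (0.574). TUBGCP4, which fell in both, and MZT2B, which rose by 0.76 in T-cell lines, were singled out after their values were seen.

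Of 13 enzymes that modify tubulin, 3 rose and 2 fell in T-cell lines (median 0.12), close to the 38.7% of all probe sets called there, and 3 rose and 1 fell in ALCL lines (median 0.29), where 18.3% of all were called. HDAC6 and SIRT2, which remove acetyl groups from alpha-tubulin, had changes of 0.64 (adjusted p = 0.00236, limma) and 0.64 (0.00965) in T-cell lines, and 0.29 (0.0918) and 0.56 (0.026) in ALCL lines. TTLL7, which adds glutamates to beta-tubulin, had 0.64 (0.0178) in T-cell and 0.78 (0.0129) in ALCL lines. With centring on the spikes HDAC6, SIRT2 and TTLL7 were at -0.04, -0.05 and -0.04 in T-cell lines, and SIRT2 at -0.04 in ALCL lines. AGBL5, which trims glutamates, had -0.89 (0.00295) in T-cell and -0.64 (0.0213) in ALCL lines. TTLL12, lower by -0.92 in T-cell lines, and TTLL5, higher by 0.53 in ALCL lines, were singled out after their values were seen.

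Of 28 genes of microtubule binding and dynamics, 6 rose and 1 fell in T-cell lines (median 0.09), and 6 rose and 2 fell in ALCL lines (median 0.22). Of all probe sets 38.7% were called in T-cell lines (20.4% higher), so the share here was no larger, and 18.3% in ALCL lines (6.69% higher). STMN1, stathmin, which binds free tubulin, fell by 1.12 ± 0.19 in T-cell lines (adjusted p = 0.00274, limma) and fell by 1.49 ± 0.19 in ALCL lines (0.00136). DPYSL3, a collapsin response protein of growing axons, rose by 0.79 ± 0.11 in T-cell lines (0.00113), and had 0.48 ± 0.11 in ALCL lines (0.0185) and with centring on the spikes 0.11 (0.85) in T-cell and -0.12 in ALCL lines. DCX, which binds microtubules of migrating neurons, had 0.56 (0.00968, and -0.12 with the spikes) in T-cell and 0.08 (0.69) in ALCL lines. MAPRE2, which binds growing microtubule ends, had 0.22 (0.247) in T-cell lines and rose by 1.05 ± 0.15 in ALCL lines (0.00192, and 0.45 with the spikes, 0.465). CLIP1, lower in ALCL lines with a change of -0.80, was singled out after its value was seen.

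Of 24 transport motor genes, 7 rose and 0 fell in T-cell lines (median 0.30), and 7 rose and 1, KIF5B, fell in ALCL lines (median 0.21), KIF5B being singled out after its value was seen. Of all probe sets 20.4% rose in T-cell and 6.69% in ALCL lines, and 38.7% and 18.3% were called in either direction. KIF1B and KIF5C, kinesins that carry cargo along axons, rose by 1.19 ± 0.17 (adjusted p = 0.00124, limma) and 1.31 ± 0.24 (0.00345) in T-cell lines, and by 0.84 ± 0.17 (0.0104) and 0.82 ± 0.24 (0.0411) in ALCL lines. KIF5A, a neuronal kinesin, rose by 0.95 ± 0.21 in T-cell lines (0.00802) and had 0.59 in ALCL lines (0.0791). KIF13B had 0.35 ± 0.10 (0.0218) in T-cell and 0.60 ± 0.10 (0.00366) in ALCL lines, and -0.33 and -0.00 with centring on the spikes. With the spikes KIF1B was at 0.51 (0.412) in T-cell and 0.24 (0.662) in ALCL lines, KIF5C at 0.63 (0.32) and 0.21 (0.693), and KIF5A at 0.27 (0.648) in T-cell lines.

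Genes of the mitotic spindle fell in 20 of 24 cases in T-cell lines (median -1.19) and in 20 of 24 in ALCL lines (median -1.59), and 0 rose, beside 18.4% and 11.6% of all probe sets that fell. AURKB, a kinase of chromosome segregation, fell by 1.92 ± 0.28 in T-cell lines (adjusted p = 0.00128, limma) and fell by 2.84 ± 0.28 in ALCL lines (0.000419). AURKA, the kinase of spindle poles, changed by -2.40 ± 0.38 (0.00179) in T-cell and -2.32 ± 0.38 (0.00354) in ALCL lines, and the spindle motor KIF15 by -1.95 ± 0.29 (0.00144) and -2.67 ± 0.29 (0.000686). The median was -1.75 with the 28S rise and -0.73 without it in T-cell lines, and -1.86 and -0.71 in ALCL lines.

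**Figure D5:**
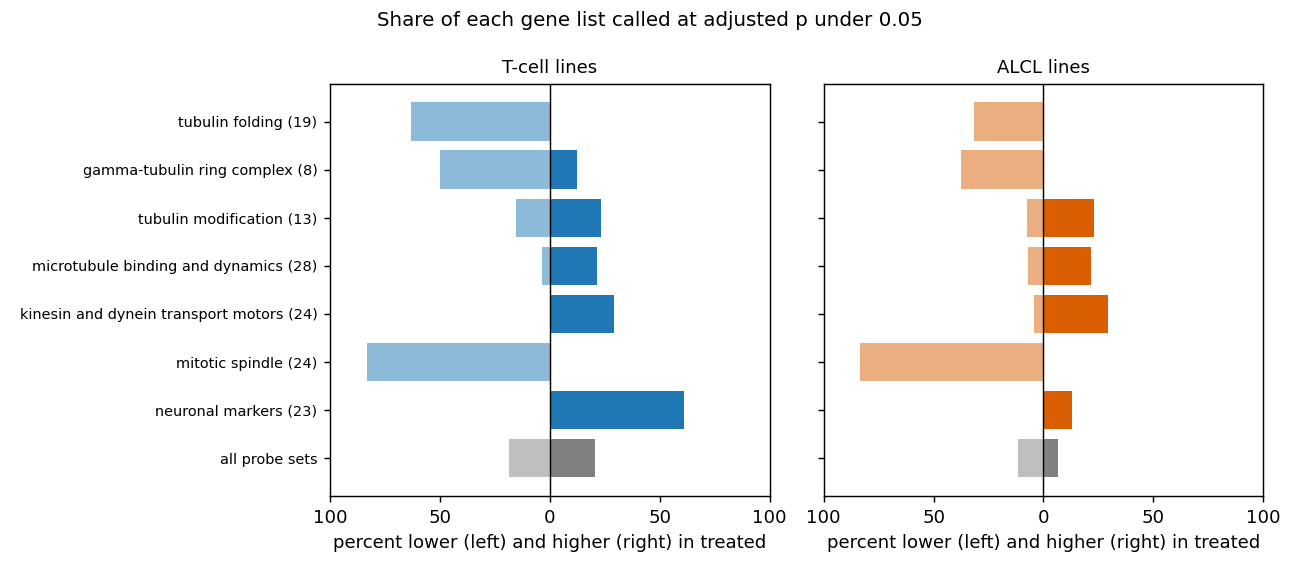
Percent of the measured genes of each list (their number in brackets) called lower (to the left) or higher (to the right) in treated T-cell lines and treated ALCL lines at an adjusted p under 0.05, with all probe sets in grey. The spindle and folding bars point to lower only, and the neuronal bars to higher only.

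Neuronal markers rose in 14 of 23 cases in T-cell lines (median 0.45) and 3 of 23 in ALCL lines (median 0.24), and 0 fell, beside 20.4% and 6.69% of all probe sets that rose. Their mean level per array was 6.65 to 6.81 in treated and 6.17 to 6.22 in untreated T-cell lines, and 6.40 to 6.83 in treated and 6.21 to 6.40 in untreated ALCL lines. UCHL1, a ubiquitin hydrolase of neurons, rose by 1.34 ± 0.27 in T-cell lines (adjusted p = 0.00561, limma) and 1.26 ± 0.27 in ALCL lines (0.0123). INA, a neurofilament protein, and ELAVL2, a neuronal RNA-binding protein, rose by 1.00 ± 0.15 (0.00157) and 0.90 ± 0.17 (0.00398) in T-cell lines. CHGA, a protein of secretory granules, had 0.48 (0.0167) in T-cell and 0.56 (0.0138) in ALCL lines, and -0.21 and -0.04 with centring on the spikes. With the spikes UCHL1 was at 0.66 (0.292) and 0.65 (0.337), and INA at 0.31 (0.599) and ELAVL2 at 0.21 (0.716) in T-cell lines. SYT1, the third to rise in ALCL lines (0.50), was singled out after its value was seen. All probe sets with untreated levels of 6 to 7 had a median change of 0.29 in T-cell and 0.17 in ALCL lines.

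Markers of other cells were also measured. Of 10 mesenchymal and matrix genes 6 rose in T-cell lines and 1, FN1, in ALCL lines, beside 20.4% and 6.69% of all probe sets. Their mean level was 6.21 to 6.68 in treated and 5.96 to 6.12 in untreated T-cell lines, and 6.23 to 6.46 in treated and 5.94 to 6.22 in untreated ALCL lines. COL1A2, a collagen chain, had 0.64 (adjusted p = 0.00326, limma) in T-cell lines and -0.04 with centring on the spikes. Of 8 myeloid and B-cell genes 1, MS4A1, rose in T-cell lines and 0 were called in ALCL lines by limma, with mean levels of 6.25 to 6.72 in treated and 6.01 to 6.19 in untreated T-cell lines. Over all probe sets 38.7% were called in T-cell and 18.3% in ALCL lines. MS4A1 was at 0.38 (adjusted p = 0.534, limma) in T-cell lines with centring on the spikes. The part of other cells in the tubulin results was not tested.

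Among 11962 other genes, GOLGB1, a Golgi protein, followed TUBB2A most closely over the 16 arrays (Pearson r = 0.97). DHRS2 (0.95), TULP3 (0.93), MTCL1 (0.93), CEBPA (0.92) and CRYM (0.92) came next, and COPS6 (-0.95), NDUFA9 (-0.95) and PMPCB (-0.96) ran most opposite. The arrays share cell lines and fall into treated and untreated sets, so these values are a description. Over the 8 changes alone r was 0.64 for GOLGB1, 0.10 for DHRS2, 0.62 for TULP3, 0.56 for MTCL1, 0.81 for CEBPA and 0.58 for CRYM. DHRS2, a short-chain reductase, changed by 4.22 in T-cell and 4.19 in ALCL lines, and GOLGB1 by 1.23 and 1.11.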

How the data were processed

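The authors deposited log2 expression values made by RMA; the submitters' processing notes name R 2.10.1. For probe set definitions and filters, the choice is not given in the sources used here. All 16 columns were matched to a line and condition, and 0 were left over. Symbols came from the platform annotation: of 22215 probe sets that are not controls, 19065 had 1 symbol, 1043 several and 2107 none, and 19053 were found in the RefSeq genes table. Members and gene lists were chosen with earlier results of these data known.

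With R 4.3.3 and limma 3.58.1, treatment effects in T-cell and ALCL lines and their difference were estimated together over the 16 arrays, each cell line being a block (6 residual degrees of freedom), and untreated ALCL minus T-cell lines from the 8 untreated arrays. Tests were two-sided with Benjamini-Hochberg adjustment over all probe sets, and the method was tested on simulated data. The treated and untreated cultures are pairs of the same cell line. Deviations from group means correlated at 0.31 to 0.63 within a line, and at most at 0.38 with another line (Molt-4, whose own was 0.31). TUBB2A was not tested for treatment.

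Named are all tubulin probe sets, and per list (folding, ring complex, modification, binding, motors, spindle, and T-lineage, ALCL, neuronal, mesenchymal, and myeloid and B-cell markers) genes taken from the 3 smallest adjusted p-values in T-cell lines and 2 in ALCL lines, each gene by its probe set of highest mean. The 6 most and 3 least correlated genes with TUBB2A were named too. Alternatives were the block left out or random, the arrays of 1 cell type, 1 probe set per gene, the lowest 40% of probe sets removed, quantile normalization, centring on spikes, a 28S term, a variance trend with robust fitting, each line left out and, added after seeing the data, the lines with or without the 28S rise.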

Additional observations from a re-analysis of the deposited data

Results flagged for a closer look

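Among 186 groups of 4 lines, 9 had a line further from the others than Dixon's 95% limit for 4 values allows, and chance at 5% a group would give 9.3. TUBB on 209026_x_at was lowest in treated Molt-4, at 11.57 beside 12.19 to 12.31 in the other treated T-cell lines, and its change there was -1.92 beside -1.20 to -1.07. TUBB on 212320_at read 11.60 in untreated SU-DHL-1, beside 11.84 to 11.87 in the other untreated ALCL lines. TUBB3 on 213476_x_at read 12.34 in treated JB6, beside 12.07 to 12.11. TUBB6 read 7.08 in treated FE-PD, beside 9.50 to 9.58. TUBA1B on 211058_x_at read 14.00 in untreated Jurkat, beside 14.17 to 14.20. TUBA8 read 5.85 in untreated JB6, beside 6.17 to 6.22, and TUBB1 5.79 in untreated CCRF-CEM, beside 5.66 to 5.68. TUBD1 on 210389_x_at changed by 0.05 in CCRF-CEM, beside -0.82 to -0.69 in the other T-cell lines.

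TUBA4A was singled out because its treatment effects differed between T-cell and ALCL lines, by 1.95 ± 0.37 (adjusted p = 0.041, limma). The range of this adjusted p over its 18 alternatives was 0.0207 to 0.269.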

How the results depend on the processing

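Counts below are of all probe sets, then of the 14 tested probe sets of the family (15 between untreated lines). In T-cell lines 8607 and 12 were called; 5018 and 5 with 1 probe set per gene, 5156 of all with centring on spikes, 3082 and 5 with a 28S term, 2279 and 3 in the lines without the 28S rise, and 5658 of all in those with it. Leaving out 1 line gave 4013 (Molt-3) to 9549, with 4149 without Molt-4, and 6 (Molt-4) to 12, with 7 without Molt-3. In ALCL lines 4072 and 12 were called; 2235 of all with no replicate block, 2491 of all with the 8 ALCL arrays alone, 2566 and 5 with 1 probe set per gene, and 984 and 4 with a 28S term. In Karpas 299, the 1 ALCL line without the 28S rise, limma called 0 and 0 (2990 and 3 at an unadjusted p under 0.05), with its spread taken from the T-cell lines. Leaving out 1 line gave 2186 (JB6) to 4126, with 2215 without SU-DHL-1, and 8 to 12. For the difference of effects 274 and 1 were called; 86 and 0 with no replicate block, 93 and 0 with spikes, and 0 and 0 without the 28S rise. The family's count was also 0 with a random block, quantile normalization or only lines with the 28S rise. Its unadjusted counts in these fits were 2 to 5. Leaving out 1 line gave 75 (Molt-3) to 247, with 95 without Molt-4 and 170 without JB6, and 0 to 1. Between untreated lines 1625 and 4 were called; 1048 of all with 1 probe set per gene, and 711 (without Molt-3; 733 without Molt-4) to 1864 and 4 to 7 (without Jurkat) leaving out 1 line.

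Values that changed sign after being called did so with centring on spikes: in T-cell lines TUBB4B 213726_x_at (-0.02), TUBG2 (-0.00), HDAC6 (-0.04), SIRT2 (-0.05), TTLL7 (-0.04), DCX (-0.12), KIF13B (-0.33), CHGA (-0.21) and COL1A2 (-0.04), and in ALCL lines TUBG2 (-0.16), SIRT2 (-0.04), DPYSL3 (-0.12), KIF13B (-0.00) and CHGA (-0.04). This setting shifts all probe sets of an array together. The cause of the other changes was not tested, beyond fewer probe sets or lines where the setting removes them. The replicate block, that is the cell line, is part of the design.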
